A study of Homo sapiens with 6 samples.

Results

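The 10 genes of the islet and enteroendocrine programme described here, NEUROD1, INSM1, PDX1, PAX6, NKX2-2, ISL1, CHGA, SCG2, PCSK1 and CPE, were looked up by name in the counts table, and 7 of the 10 had a row among its 16720 named rows. The libraries were made from cells labelled Hep3B, a human hepatocellular carcinoma (HCC) cell line. Both arms were transduced with the all-in-one lentiviral vector lentiCRISPRv2, which carries Cas9 and a guide RNA, and were selected with puromycin. The sgControl arm (3 libraries, genotype labelled WT) carried a control guide, and the sgRFX6 arm (3 libraries, labelled RFX6 knockout) carried a guide against RFX6. Cell lines were expanded from single cells, so the sgRFX6 arm represents clonal cells and a difference between clones cannot be told apart from an effect of the guide. No label tied the 3 libraries of an arm to separate cultures, so the spread between them may be technical. Total counts per library ran from 16730374 to 25070770, and 3 counts corresponded to 0.121 to 0.188 CPM, the count scaled to library size with TMM factors. A level of 3 counts or fewer is called near background below. Markers of the labelled cell type were partly low, and intestinal epithelium markers were well detected. Their values follow the endocrine genes.

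RFX6 is a winged-helix transcription factor that acts in the pancreatic endocrine lineage after NEUROG3 and remains active in islet and enteroendocrine cells. The factors of the list form the network that specifies and maintains these cells, with PDX1 acting early in the pancreatic and duodenal endoderm and NKX2-2, NEUROD1, INSM1, PAX6 and ISL1 acting in endocrine progenitors and their progeny. The remaining genes encode parts of the regulated secretory pathway. CHGA and SCG2 encode granins that pack dense-core granules, and PCSK1 and CPE encode enzymes that cut and trim prohormones. The first question is which of these genes were measurable in the cells labelled Hep3B at all.

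The guide sequence shows where RFX6 was targeted. It matched the plus strand of exon 3 of 19 of RFX6 at chr6:116880567-116880586 (GRCh38), and the capitals mark the adjacent PAM read from the reference transcript.
RFX6 sg3 site: gtgaaggagtttgcttaccaCGG
RFX6 itself was detected in every library. The sgControl libraries held 117, 144 and 170 counts and the sgRFX6 libraries 69, 59 and 77, so every sgRFX6 library lay below every sgControl library. The level was 6.27 ± 0.931 CPM in sgControl and 3.54 ± 0.146 CPM in sgRFX6 (mean ± SD, n = 3). The log2 fold change was -0.82 (SE 0.26), which did not pass the threshold of 0.05 (adjusted p = 0.142, edgeR quasi-likelihood test). An exact permutation test of 3 against 3 libraries, two-sided, gave p = 0.1, the smallest it can give. Counts summed over the gene do not read the edited site and do not measure RFX6 protein. The authors reported that the efficiency of the RFX6 knockout was checked by western blotting and real-time PCR. Limma-voom with sample quality weights and a correction for GC content both placed RFX6 past the threshold, at adjusted p = 0.00274 and 0.0460, and adjusted p ran from 0.00274 to 0.505 over the 16 alternatives. These 2 alternatives called many more genes in general, 3998 of 12839 with limma-voom and 1356 of 12002 with the GC correction, against 480 of 12839 in the reported fit.

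NEUROD1, INSM1 and PCSK1, 3 of the 10 genes, had no row. No row of the table carried another symbol of these genes either. Their levels are not analysed here, since a missing row does not show a count of 0. RCOR1, a corepressor that most cell types use, had no row either, whereas 15 rows of the table were at 0 in all 6 libraries. ISL1 and CHGA were near background in every library. The ISL1 counts were 1, 0 and 0 (sgControl) against 0, 0 and 1 (sgRFX6), and CHGA had 2, 0 and 1 against 0, 0 and 2. CPE reached 4 counts in 1 sgRFX6 library and was otherwise near background, at 1, 0 and 2 counts (sgControl) against 1, 4 and 1 (sgRFX6). The groups overlapped for all 3 of these genes, and no fold change is given for ISL1 and CHGA. Over the whole table, 1921 rows (11.5%) were at 3 counts or fewer in every library. The remaining 4 genes, NKX2-2, PAX6, PDX1 and SCG2, passed the filter on low counts, yet no count of any listed gene exceeded 40 in a library. NKX2-2, PAX6 and PDX1 had mean levels above those of 25.8%, 26.4% and 24.5% of the rows, and SCG2 above 21.3%, against 38.1% for RFX6.

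**Figure D1:**
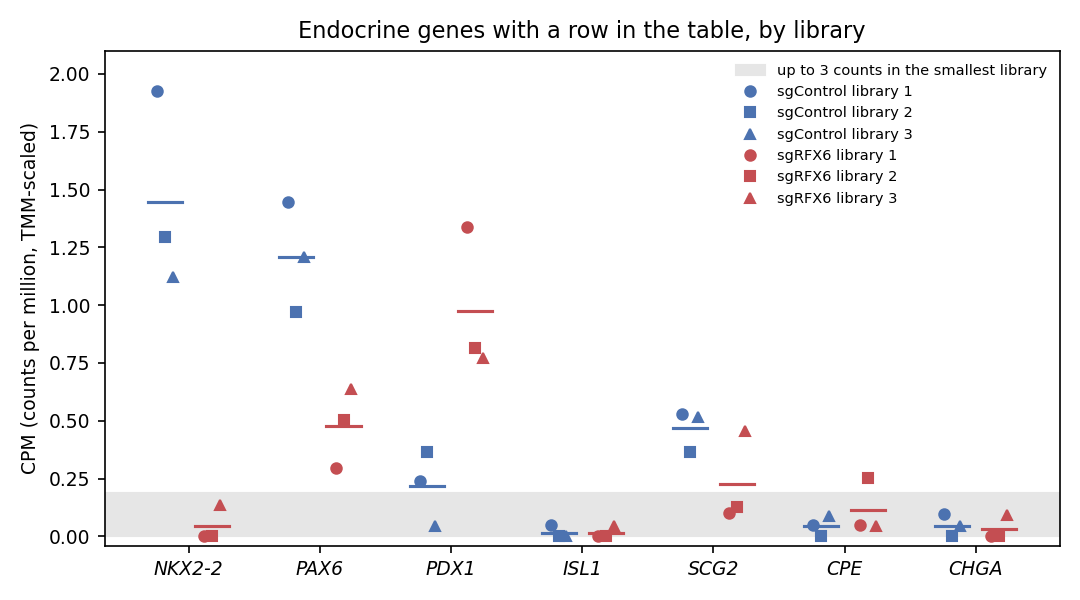
Levels in CPM of the 7 listed genes that had a row, by library, with sgControl in blue, sgRFX6 in red, horizontal bars for the group means of 3 libraries, and grey for levels up to that of 3 counts in the library of lowest scaled size (0.188 CPM). NKX2-2 lies within the grey band in the 3 sgRFX6 libraries, PAX6 and PDX1 show separate groups in opposite directions, and ISL1 and CHGA lie within the band throughout.

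NKX2-2, a homeodomain factor required for islet beta cells and for several enteroendocrine types, was the listed gene that passed the test. It lies at 20:21511010-21514026 on the minus strand (GRCh38, GENCODE release 29). The sgControl libraries held 40, 32 and 26 counts (1.45 ± 0.423 CPM, n = 3). The sgRFX6 libraries held 0, 0 and 3 counts. All 3 sgRFX6 libraries were therefore near background, and the groups did not overlap. Summed over libraries, 98 counts stood against 3, a level 27.65-fold lower in sgRFX6 (95% counting interval 9.19 to 136). Counting intervals here and below leave out the spread between libraries, which exceeded counting noise. NKX2-2 fell past the threshold (adjusted p = 0.0130, edgeR). Its adjusted p lay between 4.47e-06 and 0.0539 over 15 alternatives, and the call was lost in 1 of them, without sgRFX6 replicate 1 (adjusted p = 0.0539). The NKX2-2 gene shares 638 exon bases with its antisense transcript NKX2-2-AS1, which had no row, and the sources used here do not state whether counting used strand.

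The upstream window of NKX2-2 is shown because NKX2-2 was called lower, and because RFX proteins bind X-box elements in promoters. It is the RefSeq window before the distal NKX2-2 start, chr20:21522690-21522939 on the minus strand (GRCh38.p14), 250 bases printed 5′ to 3′ with no part in capitals.
NKX2-2 upstream window: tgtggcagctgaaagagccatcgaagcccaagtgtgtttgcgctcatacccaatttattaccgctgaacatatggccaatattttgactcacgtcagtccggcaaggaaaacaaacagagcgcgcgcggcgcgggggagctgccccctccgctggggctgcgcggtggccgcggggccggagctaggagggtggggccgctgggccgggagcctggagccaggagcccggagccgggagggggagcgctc
Only a part of the X-box was searched, on both strands, as GTTGCC, as the form GTTGCT, as the form GTTACC and as the form GTTACT. That part was not found in this window, which lies outside the NKX2-2 gene span given above. Nor was the part found in the other RefSeq window of NKX2-2, chr20:21512961-21513210, which lies within that span and is not printed. Of 35116 RefSeq windows of this length, 27.6% held it. Of the 10 listed genes, 7 had a window, and 5 of their 17 windows held the part, 3 of the 9 windows of PAX6 and the single windows of ISL1 and CPE. INSM1, PDX1 and SCG2 had no window. These matches describe the letters of the windows only, and a whole X-box was not searched.

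PAX6, a paired-box factor that islet alpha and beta cells and the eye require, was lower in every sgRFX6 library without passing the test. The sgControl libraries held 30, 24 and 28 counts, and the sgRFX6 libraries 6, 8 and 14. The groups did not overlap, with 1.21 ± 0.237 CPM against 0.479 ± 0.170 CPM (n = 3 each). The log2 fold change was -1.32 (SE 0.42), and the adjusted p was 0.148 by edgeR. PAX6 passed the threshold in 2 of 15 alternatives, limma-voom with sample quality weights (0.00148) and the GC correction (0.0395), and its adjusted p ran up to 0.446. PAX6 (11:31784779-31818062, minus strand) shares 5241 exon bases with ELP4 on the opposite strand. ELP4, a subunit of the Elongator complex, had 276, 330 and 239 counts (sgControl) against 325, 198 and 404 (sgRFX6), so the part of the PAX6 counts that came from ELP4 transcripts cannot be told apart if counting ignored strand.

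PDX1, the homeodomain factor that starts pancreas formation and drives insulin transcription, was the only one of the 4 tested genes with a higher level in sgRFX6. It lies at 13:27920020-27926231 on the plus strand. The sgControl libraries held 5, 9 and 1 counts and the sgRFX6 libraries 27, 13 and 17, so the groups did not overlap. The sgControl libraries averaged 0.216 ± 0.162 CPM and the sgRFX6 libraries 0.976 ± 0.316 CPM (n = 3 each). The log2 fold change was 2.14 (SE 0.61), and the adjusted p of 0.107 (edgeR) missed the threshold. PDX1 passed the threshold in 3 of the 15 alternatives, limma-voom with sample quality weights (0.000351) and the GC correction (0.0383) among them, and the highest adjusted p over all 15 was 0.334.

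Among the listed genes of secretory granules, SCG2 was the one that passed the filter. SCG2, which encodes secretogranin II, gave 11, 9 and 12 counts (sgControl) against 2, 2 and 10 (sgRFX6). Replicates 1 and 2 of sgRFX6 were near background, whereas replicate 3 lay within the sgControl range, so the groups overlapped. The levels were 0.471 ± 0.0923 CPM and 0.226 ± 0.198 CPM (n = 3 each). The log2 fold change was -0.98 (SE 0.61, adjusted p = 0.519, edgeR), and the exact permutation test, two-sided, gave p = 0.2. Without sgRFX6 replicate 3 the log2 fold change was -2.01, still short of the threshold (adjusted p = 0.114, edgeR), and only limma-voom with sample quality weights called it (0.00274). For CPE, the ratio of summed levels, sgRFX6 over sgControl, was 2.36 with a 95% counting interval from 0.505 to 14.6, so no difference was detectable at this depth.

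The order of the mean levels differed between the arms, whether or not levels were scaled to transcript length. In sgControl, the levels per kilobase of transcript were 0.692 CPM for NKX2-2, 0.471 for PAX6, 0.183 for SCG2 and 0.0864 for PDX1. In sgRFX6 PDX1 came first with 0.390 CPM per kilobase, followed by PAX6 with 0.187, SCG2 with 0.0879 and NKX2-2 with 0.0217. RFX6 itself stood above all of them in both arms, with 1.81 and 1.02 CPM per kilobase. Between neighbours in these orders, the libraries overlapped for NKX2-2 and PAX6 and for SCG2 and PDX1 in sgControl, and for PAX6 and SCG2 and for SCG2 and NKX2-2 in sgRFX6.

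In all, 1 of the 4 tested genes was called, NKX2-2, which was lower in sgRFX6. Over all 12839 tested genes, 3.74% were called in either direction, 1.81% lower and 1.92% higher. The groups did not overlap for 3 of the 4, NKX2-2, PAX6 and PDX1, against 23.1% of all tested genes. The filter required 0.484 CPM in at least 3 libraries. NKX2-2 and PDX1 met it only through the arm in which they were high. PAX6 met it in 3 sgControl libraries and 1 sgRFX6 library, so it too passed through its high arm. These counts are therefore a description and carry no support for the list as a whole. The direction of all 4 genes was the same in every alternative in which they were tested, and a minimum count of 30 left none of them to test.

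**Figure D2:**
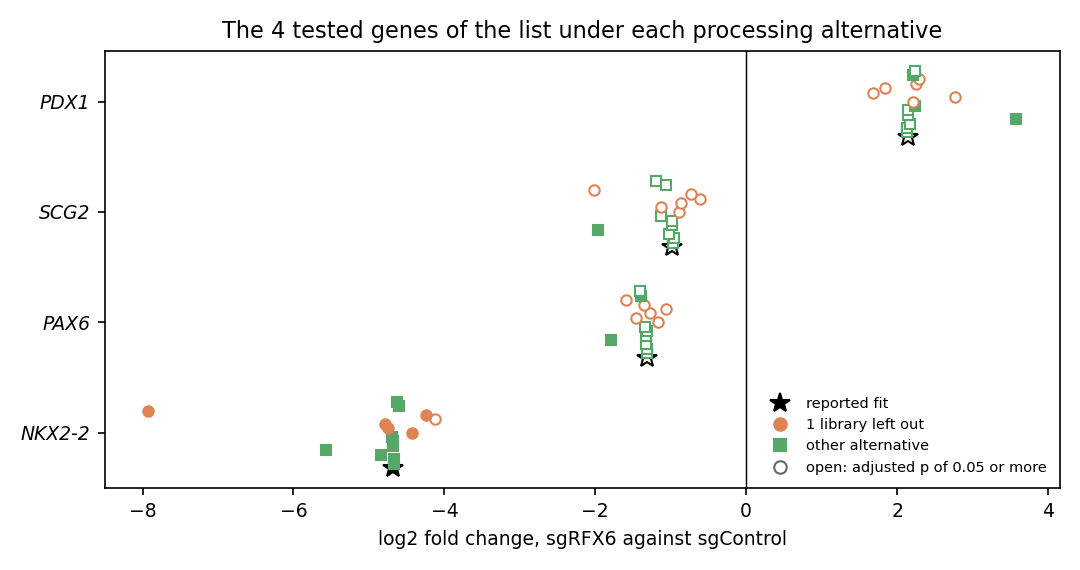
Log2 fold changes (sgRFX6 against sgControl) of the 4 tested listed genes in the reported edgeR fit (star), with 1 library left out (circles) and under the other alternatives (squares), filled where adjusted p was under 0.05. PDX1 stays above 0 and the other 3 genes below 0 in every fit, while filled symbols dominate only for NKX2-2, whose fitted values rest on at most 3 sgRFX6 counts and depend on the prior count.

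As a description of which genes ran in parallel with NKX2-2, Pearson correlations of log2 CPM over the 6 libraries were ranked. The 3 highest were CYP4F11 (r = 0.997), a cytochrome P450 of fatty acid and vitamin K metabolism, CXADR (r = 0.997), the coxsackievirus and adenovirus receptor of cell junctions, and ERO1B (r = 0.994), an oxidase of the endoplasmic reticulum that is abundant in islets. ERO1B went from 38, 41 and 37 counts to 2, 1 and 7, and CXADR held 360, 334 and 346 against 40, 35 and 88. CYP4F11 moved far less, from 4222, 4660 and 4349 counts to 2847, 2231 and 3368. Of 12838 genes, 125 had an r above 0.95, and all these values share the same 6 libraries and the same 2 groups.

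The listed genes were set beside 77 other genes of the islet and enteroendocrine programme, a set chosen with earlier results of these data known. Of these, 50 had a row, 18 were near background in every library and 7 more did not pass the filter. Among the 25 that could be tested, 3 rose (SYT13, PTPRN2 and DDC), 1 fell (RIMBP2) and 21 were not called, where 1.92% of all tested genes were called higher and 1.81% lower. The wider set had a median log2 fold change of 0.03 against 0.02 over all tested genes. Of 20 further transcription factors, 13 had a row, 6 were tested and 0 passed the edgeR threshold. By edgeR 3 of the 6 had an unadjusted p under 0.05, a share that was not counted over all genes. DESeq2 called 1 of the 6, against 895 of 12839 genes. Limma-voom with sample quality weights called 3 of the 6, against 3998 of 12839 genes. The upstream factor NEUROG3 had no row. RFX3, the RFX family member that forms dimers with RFX6 in islets, stood at 18, 32 and 16 counts against 10, 6 and 18 (log2 fold change -0.73, SE 0.45, adjusted p = 0.509, edgeR), and its groups overlapped.

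Of 11 tested granule and exocytosis genes of this wider set, 3 were called, against 3.74% of all tested genes. Because the set was chosen with earlier results known, this count is a description only. SYT13, an atypical synaptotagmin of endocrine cells, went from 393, 627 and 506 counts to 1933, 1379 and 2253. Its level rose from 22.1 ± 3.23 to 95.0 ± 7.88 CPM (n = 3 each, log2 fold change 2.11, SE 0.19, adjusted p = 0.00107, edgeR), and it was called in all 16 alternatives. PTPRN2, which encodes the granule membrane protein phogrin, rose from 7, 19 and 11 counts to 51, 36 and 49 (log2 fold change 2.13, SE 0.39, adjusted p = 0.0203, edgeR). RIMBP2, which encodes a scaffold linking calcium channels to release sites, fell from 25, 24 and 36 counts to 0, 0 and 1. Its summed level was 71.9-fold lower in sgRFX6 (95% counting interval 12.6 to 2874, adjusted p = 0.00401, edgeR), which is the pattern that NKX2-2 also showed, with every sgRFX6 library near background. RIMBP2 passed the filter on low counts only through sgControl, the arm in which it was high. PTPRN2 met the level of that filter in 3 sgRFX6 libraries and 1 sgControl library, so it too passed through its high arm. The PTPRN2 call was lost without sgControl replicate 1 (0.0782), sgControl replicate 3 (0.105), sgRFX6 replicate 1 (0.0868) or sgRFX6 replicate 2 (0.0573).

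Few hormone genes had measurable counts. Of 18 genes for hormones and amine synthesis, 10 had no row, INS, GCG and SST among them, and 3 were near background in every library. The 3 tested were GIP, TPH1 and DDC. GIP, the incretin of intestinal K cells, stood at 21, 49 and 32 counts against 25, 37 and 21, and its groups overlapped. DDC, the aromatic amino acid decarboxylase that kidney, liver and gut also use, rose from 1480, 1628 and 1639 counts to 2708, 1967 and 2667. Its level went from 69.3 ± 2.96 to 126 ± 7.10 CPM (n = 3 each, log2 fold change 0.87, SE 0.15, adjusted p = 0.0161, edgeR). The DDC call was lost without sgControl replicate 1 (0.0784), sgControl replicate 3 (0.0751) or sgRFX6 replicate 1 (0.102). Of 14 genes of glucose sensing and stimulus-secretion coupling, 3 were tested and 0 passed the edgeR threshold, with 0 at an unadjusted p under 0.05. DESeq2 and limma-voom with sample quality weights also called 0 of them.

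Of 3 genes listed as repressors or corepressors of endocrine genes in other tissues, REST and HES1 were measured and RCOR1 had no row. REST, which silences neuronal and endocrine genes, stood at 23.3 ± 5.61 CPM in sgControl and 23.5 ± 13.9 CPM in sgRFX6 (n = 3 each, log2 fold change 0.01, SE 0.40, adjusted p = 0.993, edgeR). The sign of this small difference changed in 6 of 16 alternatives, and with limma-voom and sample quality weights it was -0.52 (adjusted p = 0.0404). HES1, the Notch effector that represses NEUROG3, stood at 43.6 ± 9.77 and 49.0 ± 3.85 CPM (log2 fold change 0.17, SE 0.21, adjusted p = 0.801, edgeR), with 0.0406 by limma-voom with sample quality weights.

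**Figure D3:**
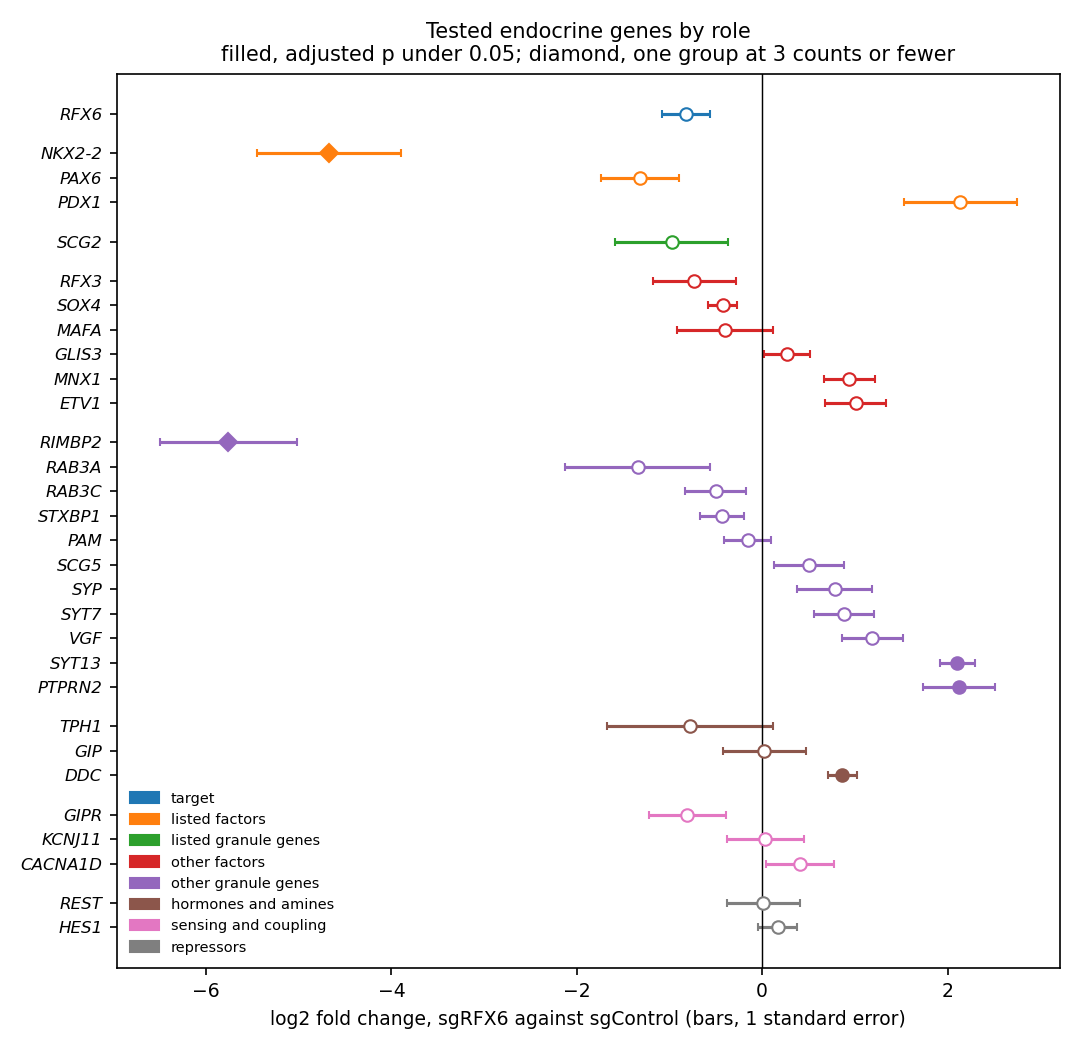
Log2 fold changes (sgRFX6 against sgControl, bars for 1 standard error) of RFX6, the 4 tested listed genes and the 25 tested genes of the wider set, coloured by role, filled where adjusted p was under 0.05 and with diamonds where one arm held 3 counts or fewer in every library. NKX2-2 and RIMBP2 lie far to the left at values that depend on the prior count, SYT13, PTPRN2 and DDC are the filled points to the right, and the other 25 points are open.

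Markers of other cell types were measured in the same libraries. All 10 hepatocyte markers were detected, with HNF4A at 109 to 161 CPM and ALB at 12.9 to 32.1 CPM, while APOA1 lay at 0.695 to 2.45 CPM and TTR reached only 0.880 CPM. AFP lay at 1.58 to 2.31 CPM in sgControl and 9.98 to 17.15 CPM in sgRFX6. The summed level of the 10 was 260 to 307 CPM in sgControl and 209 to 225 CPM in sgRFX6, with HNF4A the largest part in every library. Yet 7 of the 10 had a positive log2 fold change, with a median of 0.29. By edgeR 3 of the 10 were called, AFP and AHSG higher and FGB lower, against 3.74% of all tested genes. In sgControl, AFP, TF and AHSG averaged only 2.03, 2.17 and 1.83 CPM, while ALB, APOB, SERPINA1 and FGB averaged 20.2, 66.55, 9.14 and 26.4 CPM. Intestinal epithelium markers were well detected in these cells labelled as HCC. Together with the low APOA1 and TTR, and the low AFP, TF and AHSG in sgControl, this leaves the labelled cell type only partly borne out by its markers. Of 8 markers 5 had a row, with CDX2 at 17.3 to 58.3 CPM, CDH17 at 292 to 630 CPM and a summed level of 1269 to 2247 CPM in sgControl and 1977 to 2436 CPM in sgRFX6. Of the 5, 1 was called, KRT20, against the same 3.74%, at 248 ± 52.1 CPM in sgControl and 792 ± 130 CPM in sgRFX6 (n = 3 each). Of 7 pancreatic exocrine markers only PRSS1 had a row, at 3 counts or fewer in every library. Of 7 neuronal markers 5 had a row, with a summed level of 121 to 200 CPM in sgControl and 152 to 205 CPM in sgRFX6, nearly all of it TUBB3 and MAP2, and SNAP25 near background. The part of these cell type markers in the endocrine gene results was not tested. In bulk RNA, fewer cells of a type and less RNA per cell cannot be told apart.

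**Figure D4:**
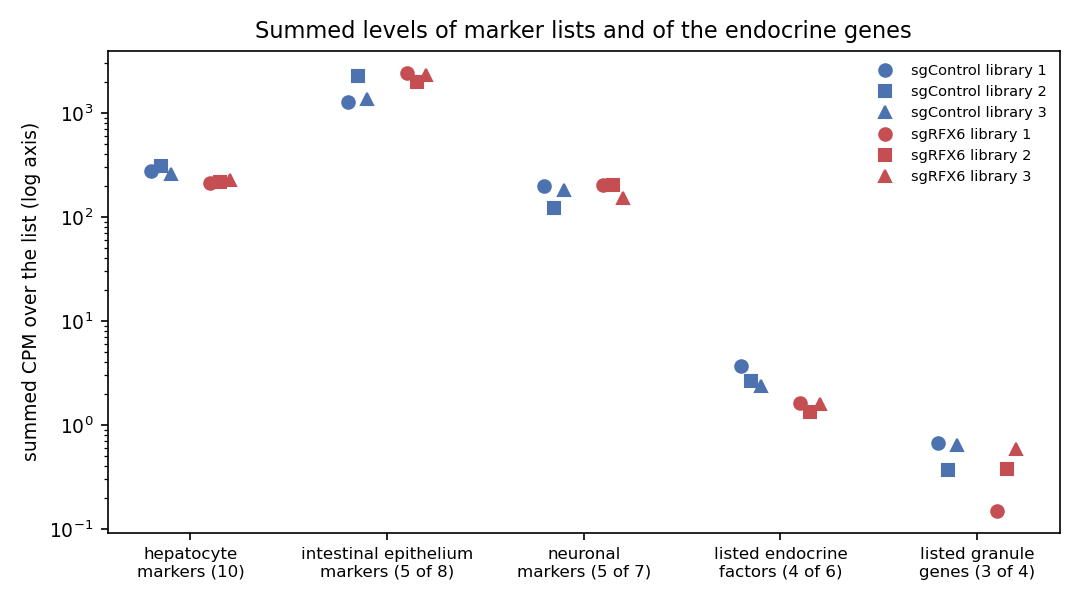
Summed CPM by library (log axis, not scaled by length) of the marker lists of 3 other cell types and of the listed endocrine factors and granule genes, with sgControl in blue and sgRFX6 in red. The endocrine factors sum to 2.37 to 3.66 CPM in sgControl and 1.32 to 1.64 CPM in sgRFX6, and the granule genes overlap between the arms at 0.149 to 0.674 CPM.

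Values of the surrounding chromosome and of base composition stood beside the results as follows. The 50 tested genes nearest to NKX2-2, PDX1 and SCG2 had median log2 fold changes of 0.06, 0.01 and -0.11, those nearest to PAX6 had 0.40, opposite in sign to PAX6 itself, and those nearest to SYT13, PTPRN2 and DDC had 0.30, 0.40 and 0.47. The deviations of the libraries ran with GC content to different degrees, with Spearman correlations across genes from -0.749 in sgRFX6 replicate 3 to 0.540 in sgRFX6 replicate 2. The GC content of the transcripts was 57.0% for NKX2-2, 59.9% for PDX1, 41.5% for PAX6 and 43.0% for SCG2, against a median of 48.6% over tested genes.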

How the data were processed

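RNA of the cells labelled Hep3B was isolated with Trizol by the authors and read on an Illumina sequencer. The deposited table holds raw counts for 16721 rows in 6 libraries. GRCh38 (hg38) comes from the submitters' processing notes. The aligner, counting program and annotation are not given in the sources used here. The control columns name no guide and were taken as sgControl, the only control group. The single unnamed row, with up to 9.17e-05% of the counts in any library, was dropped.

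The fit used edgeR 4.0.16 under R 4.3.3. Filtering by filterByExpr (minimum count 10, minimum total 15), TMM scaling, a quasi-likelihood test without covariates and Benjamini-Hochberg adjustment over all 12839 genes were applied, with a threshold of 0.05. CPM values are TMM-scaled. Single genes were also compared by an exact permutation test of CPM. The 95% intervals of level ratios are exact (Clopper-Pearson on the summed counts) and cover counting error only, since PCR reads are not independent molecules. No 2 libraries of the same arm agreed within counting noise (chi-square per degree of freedom 17.0 to 124). GENCODE release 29 gave positions, lengths and GC content. Promoter windows came from RefSeq. The test was run on simulated counts before use.

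DESeq2 1.42.0, limma-voom (limma 3.58.1) with sample quality weights, scaling by RLE or by library size, no filter on low counts, minimum counts of 3 and 30, a replicate block and each library left out were the alternatives. A GC correction, alone and with the block, was chosen after seeing the data. It passed a smooth trend of each library's deviations (loess span 0.3, log2 CPM with prior count 2) to edgeR for the 12002 genes with a GC value. Named were the 10 listed genes, RFX6, called genes of the wider list, RFX3, NEUROG3, REST and HES1, and the 3 genes most alike to each called listed gene. Other genes were named after their values were seen. The listed genes, wider lists and marker lists were chosen with earlier results of these data known.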

Additional observations from a re-analysis of the deposited data

How the results depend on the processing

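The number of listed genes called, 1 of 4, was 4 with limma-voom and sample quality weights and 3 with the GC correction, and ran from 0 to 1 with each library left out, 0 without sgRFX6 replicate 1. The number called in the wider list, 4 of 25, was 13 with limma-voom, 8 with the GC correction and 2 to 6 with each library left out, 2 without sgControl replicate 1, sgControl replicate 3 or sgRFX6 replicate 1. The log2 fold change of RFX6 passed the threshold with limma-voom (-0.96) and the GC correction (-0.85) and ran from -0.89 to -0.67, short of the threshold, with each library left out. REST changed sign with limma-voom (-0.52), the GC correction (-0.15), the GC correction with the replicate block (-0.17), without sgControl replicate 2 (-0.16) and without sgRFX6 replicate 3 (-0.58), and ran from -0.58 to 0.29 with each library left out. The causes were not tested. Of 170 values for the 11 single genes, 149 kept their direction and side of the threshold, 7 moved past it, 8 fell short of it and 6, all of REST, changed sign. Over all genes, 480 calls became 895 with DESeq2, 3998 with limma-voom, 1356 with the GC correction and 803 with the GC correction and block, and 212 to 718 with a library left out.

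Libraries of the same replicate number did not deviate together (r of deviations -0.406, 0.174 and -0.0867, and 0 of 6 libraries correlated best with their own number), so the numbers were not treated as pairs. With the replicate block, 2 listed genes were called, NKX2-2 and PDX1 (adjusted p = 0.0274, edgeR), REST stood at -0.12, and calls over all genes went from 480 to 648. The listed genes reached at most 40 counts in a library, and a minimum count of 30 left none of them to test.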
